A study of Mus musculus with 4 samples.

Results

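The cells described here are fetal liver progenitors that carried at least 1 transcript of Gata2 together with transcripts of stem-cell regulator genes. They were chosen from the measured values: the unique molecular identifiers (UMIs, each standing for 1 captured transcript) of Hlf, Meis1, Hoxa9, Hoxa7 and Mycn had to sum to at least 2 per 10000 of the UMIs of the cell. In addition Gata2 had to have at least 1 UMI, Cpa3 fewer than 2 UMIs, and Irf8 and Cebpe fewer than 5 and 4 UMIs per 10000. The rule found 281 of 9960 cells, or 2.82%. A further 1347 cells met every other condition with 0 Gata2 UMIs and served as the closest comparison. The 2 sets together, 1628 cells, are called stem-marker cells below.

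Progenitors of the surface type Lin-Sca1-Kit+CD34+ had been sorted from fetal livers of C57Bl/6J embryos at E14.5, and their RNA was sequenced cell by cell after droplet capture (10x Genomics Chromium). There were 2 wild-type embryos and 2 embryos of the genotype Gata2-77-/-, which lacked the enhancer that lies 77 kb upstream of Gata2 on both alleles. All 4 embryos had the same strain, age and sort gate. The deposited columns name the libraries F and I (wild type) and A and B (enhancer deleted). No further allele or agent was named. The sort gate excluded cells with surface Sca1, a protein that definitive mouse stem cells commonly carry, so the name "stem-marker" refers to the 5 regulator transcripts and not to a tested stem-cell activity.

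GATA2 is a zinc-finger transcription factor that binds GATA motifs and is needed for the formation and upkeep of blood stem and progenitor cells. In progenitors it works with partners such as RUNX1, FLI1 and LMO2. As cells become erythroid, its relative GATA1 takes over many of its binding sites and shuts Gata2 off, with the help of the cofactor FOG1, the product of Zfpm1. The gene also marks mast cell and basophil progenitors, which is why the rule set an upper limit on the mast cell protease gene Cpa3. Its gene lies at chr6:88193891-88207032 on the plus strand (mm10, that is GRCm38).

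The 4 libraries held 1938 to 3042 cells and 16837863 to 40117680 UMIs, with 4980 cells per genotype. Depth went with genotype: the median cell had 12826.5 and 17437.5 UMIs in the wild-type libraries and 7492 and 7087 in the enhancer-deleted ones. In the Gata2-detected stem-marker cells the medians were 10947 (F), 13178 (I), 8376 (A) and 7442.5 (B) UMIs, and their summed totals were 1185744, 1174580, 360589 and 364418 UMIs. Mitochondrial UMIs made up 3.09% to 3.50% in these cells. Xist was at 0 CPM in F and A and at 696 and 527 CPM in I and B, so each genotype had 1 library of either kind. The table held 3624 genes, and levels below are given as CPM, the UMIs of a gene scaled to a common total over these genes, with no correction for gene length. It carried no barcodes, so barcodes shared between libraries could not be counted.

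Gata2-detected stem-marker cells numbered 104 in F, 84 in I, 45 in A and 48 in B. They made up 3.42% and 4.33% of all cells in the wild-type libraries and 2.01% and 1.75% in the enhancer-deleted ones. The wild-type libraries were both higher, with means of 3.88% ± 0.647 and 1.88% ± 0.187 (SD, n = 2 libraries each). Stem-marker cells as a whole stood the other way round, at 11.5% and 14.1% of wild-type cells and 19.3% and 20.9% of enhancer-deleted cells. Within them, Gata2 had a UMI in 29.8% of cells in F (exact 95% binomial interval 25.0% to 34.9%) and in 30.7% in I (25.3% to 36.5%). The same share was 10.4% in A (7.72% to 13.7%) and 8.36% in B (6.23% to 10.9%). The intervals of the 2 genotypes did not overlap. They cover counting error only, and since the rule reads Gata2, these shares are a description without a test.

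The shares were then taken at 1 depth, with each cell reduced at random to 4346 UMIs and the rule applied again. Cells shallower than this were dropped, 140 of them wild type and 855 enhancer deleted. Gata2 was detected in 15.0% (F), 13.6% (I), 4.74% (A) and 5.73% (B) of the stem-marker cells so found, and the genotypes again did not overlap. At this depth 1 stem-marker UMI was enough to pass, so more cells entered the denominator. Free RNA sets a floor under such shares. In cells with a Csf1r UMI and at least 5 Irf8 UMIs per 10000, a monocyte-type profile that should lack the gene, Gata2 had a UMI in 1.19% of 253 wild-type cells (median 16978 UMIs) and in 2.81% of 391 enhancer-deleted cells (median 7627 UMIs). The pooled stem-marker cells had 30.2% (median 11584 UMIs) and 9.25% (median 6622 UMIs), above that floor in both genotypes. After thinning to 4346 UMIs, the wild-type shares were 14.4% (exact interval 12.3% to 16.8%) against a floor of 0.797% (0.0966% to 2.85%). The enhancer-deleted shares were 5.31% (4.09% to 6.77%) against 2.25% (0.978% to 4.39%). These last intervals overlapped, as they did within A and within B, so the enhancer-deleted share was not clearly apart from the floor at equal depth. What free RNA contributed to the enhancer-deleted Gata2-detected cells was not tested.

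**Figure D1:**
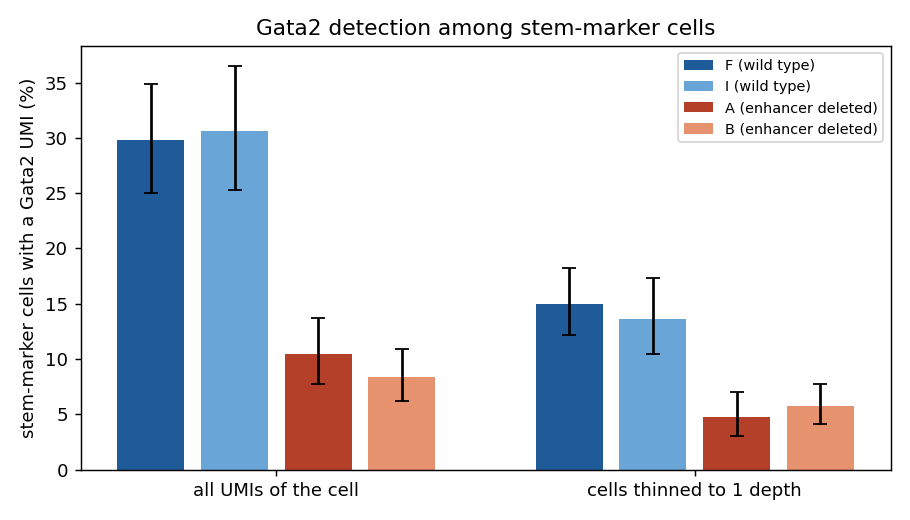
Percent of stem-marker cells with at least 1 Gata2 UMI in each library, from all UMIs of the cell (left) and after thinning every cell to 4346 UMIs (right); bars are shares and lines are exact 95% binomial intervals. Both wild-type libraries (29.8% and 30.7%) stand above both enhancer-deleted libraries (10.4% and 8.36%), also after thinning.

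The Gata2 UMIs that chose the cells are given as a description, and the raw counts moved with depth. Exactly 1 Gata2 UMI was counted in 65.4% and 60.7% of the Gata2-detected stem-marker cells in F and I, against 91.1% and 95.8% in A and B. The highest count in a single cell was 8 in F, 6 in I, 3 in A and 2 in B. The level was 144 (F), 120 (I), 139 (A) and 137 (B) CPM, which overlapped between genotypes. That level has little meaning on its own, since every cell had to carry a Gata2 UMI and the enhancer-deleted cells were shallower. Over all cells of a library Gata2 stood at 26.3 and 23.2 CPM in the wild-type libraries and at 7.48 and 6.73 CPM in the enhancer-deleted ones.

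The stem-marker score had a median of 3.54 UMIs per 10000 and reached 29.6. The lowest score inside was 2.001 and the highest outside was 1.995, and 56 of the chosen cells scored under 2.5 while 51 Gata2-positive cells scored from 1.5 to under 2. Meis1, a homeobox cofactor, had a UMI in 180 of the 281 cells, and Hoxa7 in 174. Mycn, a growth regulator of the Myc family, had one in 132, Hlf, a leucine-zipper factor of stem cells, in 124, and Hoxa9 in 110. Most cells carried several: 46 had 1 of the 5 genes, 96 had 2, 84 had 3, 45 had 4 and 10 had all 5. Hlf was at 54.8 (F), 80.0 (I), 91.5 (A) and 87.8 (B) CPM and Meis1 at 123, 96.2, 105 and 57.6 CPM. Of the limiting genes, Cpa3 kept out 30 cells, Cebpe 2 and Irf8 1 cell. A single Cpa3 UMI was present in 11 cells of F and 8 of I and in none of A or B. Sorting had used the Kit and CD34 proteins. Kit transcripts were seen in 54.8% of the cells of I, 31.1% of A and 33.3% of B and in 52 of the 104 cells of F, and Cd34 transcripts in 73.1%, 78.6%, 91.1% and 91.7%.

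Which other genes went with Gata2 was asked by comparing the summed UMIs of Gata2-detected and Gata2-undetected stem-marker cells within each library. Over the 4 libraries fitted together, Gata1, Gfi1b, Zfpm1, F2r and Apoe were higher and Mzb1, Notch1, Satb1 and Flt3 lower in Gata2-detected cells. In library A, Gata1, Gfi1b and Zfpm1 were not higher, and in library B Gata1 was not higher. In edgeR's quasi-likelihood test with the library as a block, 126 of 3528 genes tested (3.57%) had an adjusted p under 0.05. Of these, 66 (1.87%) were higher and 60 (1.7%) lower in Gata2-detected cells, and 18.5% of all genes tested had 1 direction in 4 of 4 libraries. The 9 genes of the rule were left out of the counts. Gata2-detected cells were also somewhat deeper (medians of 8376 against 6383 UMIs in A), and with comparison cells of matching depth 67 genes passed. Without the block 8 passed, and DESeq2's Wald test with the block called 17. The count was 26 without library F, 42 without I and 202 without B.

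Among the regulators, Gata1, the master factor of erythroid, megakaryocyte and mast cell differentiation, was at 46.4 (F), 26.4 (I), 0 (A) and 0 (B) CPM in Gata2-detected cells. In Gata2-undetected cells it was at 6.76, 5.92, 1.52 and 0.577 CPM. Both wild-type libraries were higher in the Gata2-detected cells, while neither enhancer-deleted library had any Gata1 UMI there. The log2 difference over the 4 libraries was 2.34 ± 0.36 (SE; edgeR adjusted p = 4.75e-05). Gfi1b, a repressor needed for erythroid and megakaryocyte development, had 51.4, 41.7, 8.32 and 13.7 CPM in detected and 19.9, 9.48, 12.9 and 7.80 CPM in undetected cells. Library A alone went the other way, and the log2 difference was 1.37 ± 0.26 (edgeR adjusted p = 0.000691). Zfpm1 followed the same order, at 50.6, 39.2, 11.1 and 13.7 CPM against 14.3, 9.48, 12.6 and 8.08 CPM. Its log2 difference was 1.54 ± 0.26 (edgeR adjusted p = 0.000181), again with A slightly lower. Smim1, a red cell membrane protein gene that carries the Vel blood group, was at 43.8, 18.7, 2.77 and 2.74 CPM against 8.27, 6.71, 2.66 and 1.73 CPM (1.87 ± 0.35).

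The promoters of the 3 regulators that form the GATA1 circuit are shown because these genes code for nuclear factors and act together in background knowledge. Each was also higher with a Gata2 UMI in the fit over all libraries and in F and I. None of them was higher in A, and Gata1 was not higher in B. Each is the 250 bases before the RefSeq transcription start (GRCm38.p6), written 5′ to 3′ on the strand of the gene. Capitals mark the GATA-type motifs AGATAA and TGATAA, which were searched for on both strands.
Gata1, chrX:7967911-7968160, minus strand: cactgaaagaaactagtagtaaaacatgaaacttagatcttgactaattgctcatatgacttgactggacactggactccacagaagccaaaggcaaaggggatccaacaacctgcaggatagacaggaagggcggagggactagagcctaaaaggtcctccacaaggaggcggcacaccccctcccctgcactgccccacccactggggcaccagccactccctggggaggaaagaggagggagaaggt
Gfi1b, chr2:28621983-28622232, minus strand: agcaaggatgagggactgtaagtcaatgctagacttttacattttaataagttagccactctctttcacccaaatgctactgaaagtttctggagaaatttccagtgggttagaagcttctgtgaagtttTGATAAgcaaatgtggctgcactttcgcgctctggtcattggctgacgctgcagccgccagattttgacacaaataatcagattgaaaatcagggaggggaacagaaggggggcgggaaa
Zfpm1, chr8:122281891-122282140, plus strand: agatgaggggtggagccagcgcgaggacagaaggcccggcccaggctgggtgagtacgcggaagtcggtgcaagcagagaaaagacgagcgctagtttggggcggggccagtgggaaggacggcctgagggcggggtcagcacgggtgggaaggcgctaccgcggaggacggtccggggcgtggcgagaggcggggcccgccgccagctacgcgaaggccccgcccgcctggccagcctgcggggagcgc
One of the 2 motifs stood in the Gfi1b window, starting at base 131, and neither stood in the Gata1 or Zfpm1 window. At least 1 motif was present for 6 of the 50 genes with a window among the 66 that were higher in Gata2-detected cells (12.0%), and for 8 of 42 among those that were lower. The share was 11.4% over all panel genes with a window (322 of 2822) and 18.8% over every gene with a RefSeq window. Genes higher with Gata2 thus held the letters about as often as the panel. Enhancers, where much GATA2 binding is known to occur, lie outside these windows.

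Of the 15 genes tested from the list of GATA2 partners and other blood regulators, 5 were higher in Gata2-detected cells and 0 lower, with a median log2 difference of 0.15 against 0.00 over all genes tested. Gfi1b and Zfpm1 were followed by Ikzf2 (0.65), a zinc-finger factor of the Ikaros family, Fli1 (0.62), an ETS factor of stem cells and megakaryocytes, and Myb (0.34), a factor needed by definitive progenitors. Fli1 was higher in all 4 libraries, at 74.2, 66.4, 80.4 and 98.8 CPM in detected and 54.9, 50.9, 47.6 and 42.2 CPM in undetected cells (edgeR adjusted p = 0.00409).

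Of 12 erythroid genes tested, 6 were higher and 0 lower: Gata1, Apoe, Hbb-bt, Nfe2, Car2 and Tmem14c. The median log2 difference of the 12 was 0.54. Apoe, which codes for a lipid-carrying protein abundant in early erythroid and other progenitors of the fetal liver, was at 887 (F), 517 (I), 94.3 (A) and 49.4 (B) CPM in detected cells. In undetected cells the same libraries had 230, 148, 60.5 and 46.8 CPM. The wild-type libraries thus had several times more Apoe in Gata2-detected cells, and library B hardly any more. The log2 difference was 1.67 ± 0.12 (edgeR adjusted p = 1.33e-12), and 1.43 without the cells that had a Gata1 UMI. Its neighbour on chromosome 7, Apoc1, was at 35.4, 53.6, 27.7 and 5.49 CPM against 16.9, 13.03, 12.9 and 6.35 CPM (log2 difference 1.39 ± 0.24). The beta-globin gene Hbb-bt had 175, 203, 607 and 302 CPM in detected and 115, 133, 277 and 279 CPM in undetected cells (log2 difference 0.66 ± 0.09), and unlike the others it was highest in library A. None of the 8 heme synthesis genes tested passed (edgeR), with 1 of 8 at an unadjusted p under 0.05, against 485 of all 3528 genes tested.

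Among the megakaryocyte genes, Gp9, part of the platelet receptor for von Willebrand factor, was higher and the transcription factor gene Mef2c lower. Gp9 was at 54.0, 33.2, 19.4 and 11.0 CPM in detected against 22.2, 17.8, 12.6 and 12.4 CPM in undetected cells. It was higher in F, I and A and not in B, with a log2 difference of 0.95 ± 0.22 (edgeR adjusted p = 0.00732). F2r, which codes for the thrombin receptor PAR1, was at 65.8, 28.9, 25.0 and 11.0 CPM against 12.4, 7.90, 10.3 and 8.95 CPM. It was higher in 4 of 4 libraries, with a log2 difference of 1.84 ± 0.26 (edgeR adjusted p = 8.84e-06). By the fixed rule for genes whose pattern was most like that of Gata2, F2r and Apoe led, followed by Rab38 (1.14 ± 0.19), a small GTPase of vesicle traffic, Smim5 (0.91 ± 0.18) and Csgalnact2 (0.90 ± 0.25), an enzyme of chondroitin sulfate synthesis. The measure was the fitted log2 difference over 4 libraries among genes with 1 direction in all 4. Rab38 stood at 51.4, 67.3, 33.3 and 57.6 CPM against 27.4, 19.7, 30.8 and 24.0 CPM. Vamp5, a membrane-fusion protein gene, was higher in 4 of 4 libraries too (0.85 ± 0.09), as were Anxa5 (0.81), Gse1 (0.78), 1700097N02Rik (0.75) and Unc119 (0.71).

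Lymphoid-associated genes went the other way. Of 10 tested, 5 were lower in Gata2-detected cells (Notch1, Satb1, Flt3, Lsp1 and Bcl11a), all 10 had a negative difference, and their median was -0.28. A negative difference was also seen in 1743 of all 3528 genes tested. Flt3, the receptor of lymphoid and myeloid multipotent progenitors, was at 22.8 (F), 23.0 (I), 27.7 (A) and 24.7 (B) CPM in detected cells. In undetected cells it was at 45.8, 54.9, 43.4 and 37.0 CPM. Every library had less Flt3 in its Gata2-detected cells, with a log2 difference of -0.98 ± 0.18 (edgeR adjusted p = 0.000606). Notch1, the receptor that directs T-lineage choice, had 19.4, 15.3, 25.0 and 30.2 CPM against 54.5, 60.8, 41.5 and 41.9 CPM (-1.39 ± 0.20). Satb1, a chromatin organizer of lymphoid progenitors, had 38.0, 28.1, 33.3 and 38.4 CPM against 68.0, 83.7, 50.6 and 52.3 CPM (-1.01 ± 0.16). The deepest of the falls named by rule was that of Mzb1, an endoplasmic reticulum chaperone of B cells and plasmacytoid dendritic cells. It was at 11.8, 12.8, 2.77 and 8.23 CPM in detected and 63.1, 84.5, 30.5 and 25.4 CPM in undetected cells (-2.53 ± 0.21, edgeR adjusted p = 2.06e-10). Its levels in detected cells came from only 14 (F), 15 (I), 1 (A) and 3 (B) UMIs, and in F 6 of them were in 1 cell. Further falls in 4 of 4 libraries were Tnni2 (-1.21), D5Ertd605e (-1.14), Tifab (-1.05), Tmem173 (-0.97), which codes for the DNA sensor STING, Lsp1 (-0.90) and Cd69 (-0.85).

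The monocyte and dendritic list had 3 lower (Psap, Ly86 and H2-DMa) and 0 higher of 11 tested. The neutrophil list had 1 higher (Nkg7) and 3 lower (S100a8, Prtn3 and Elane) of 12. Of the fetal progenitor genes, Hmgb3 was higher (0.51 ± 0.08) and Hmga2 lower (-0.36 ± 0.07). Sox4, a factor shared by stem and lymphoid progenitors, was lower (-0.42 ± 0.09), while Kit (0.12 ± 0.12) did not pass. None of the 21 S-phase genes passed (edgeR), with 6 at an unadjusted p under 0.05, and 1 of 21 genes of G2 and M phase, Ube2c, was higher (0.26 ± 0.06). An unadjusted edgeR p under 0.05 was reached by 485 of all 3528 genes tested.

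**Figure D2:**
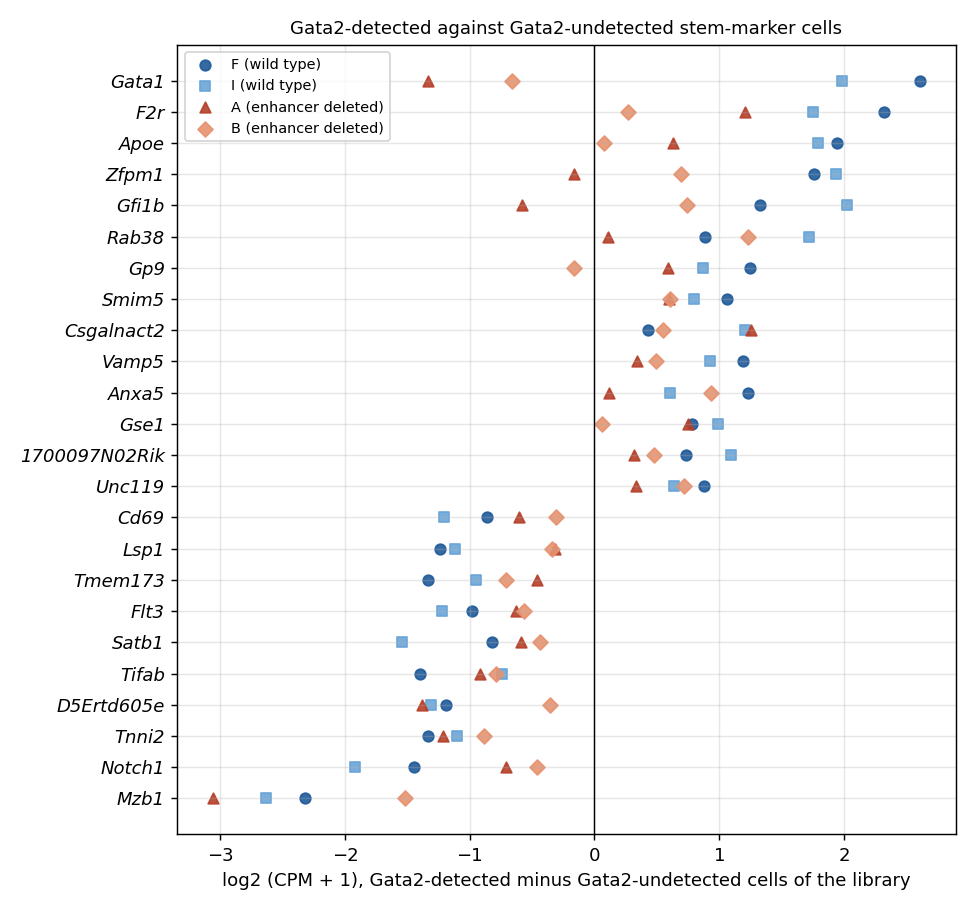
Difference of log2(CPM + 1) between Gata2-detected and Gata2-undetected stem-marker cells in each library (x axis, log2 units) for the genes named by the size of their fitted difference and 4 further genes, Gata1, Gfi1b, Zfpm1 and Gp9 (y axis); each symbol is 1 library. Gata1, Gfi1b and Zfpm1 lie to the right of 0 in F and I and to the left in A, Gfi1b and Zfpm1 lie to the right and Gata1 to the left in B, and Mzb1, Notch1 and Flt3 lie to the left in all 4 libraries.

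The comparison by Gata2 detection was also fitted within each genotype, where the numbers of calls cannot be set against each other because depth differed. Fitted on the wild-type libraries alone, 329 genes passed, and on the enhancer-deleted libraries alone 9. The enhancer-deleted sums rested on 93 cells with 360589 and 364418 UMIs, against 188 cells with 1185744 and 1174580 UMIs in the wild type. In the enhancer-deleted fit the edgeR adjusted p was 0.99 for Gfi1b, 0.97 for Zfpm1 and 0.73 for Apoe, and these were the highest values over all alternatives. Genes that passed in the enhancer-deleted libraries alone included Plac8 (adjusted p = 1.6e-07), H2afy (0.0082), Emb (0.026), Hbb-bt (0.012) and Fli1 (0.044). Whether the differences themselves differed between genotypes was tested by the interaction described further on.

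Single cells showed how these transcripts combined. In wild-type Gata2-detected stem-marker cells, 46 of 188 had a Gata1 UMI and 36 a Flt3 UMI, and 2 cells had both. Of the enhancer-deleted ones, 0 of 93 had Gata1 and 16 had Flt3. The 0 for Gata1 allows a share of cells with a UMI of up to 3.23% by 3 counts of the total. By the exact 95% limit it allows 3.89%. Both pool the cells of A and B and leave out the spread between libraries. Taken per library, the exact limit was 7.87% in A (0 of 45) and 7.40% in B (0 of 48). A UMI of Gata1, Gfi1b or Zfpm1 was seen in 110 of 188 wild-type cells (58.5%) and in 15 of 93 enhancer-deleted cells (16.1%). A UMI of Flt3, Notch1 or Satb1 was seen in 83 (44.1%) and 46 (49.5%). Both sets met in 35 wild-type and 9 enhancer-deleted cells, and neither set had a UMI in 30 (16.0%) and 41 (44.1%). Libraries of a genotype were close: the first set was present in 58 of 104 cells of F and 52 of 84 of I, and in 6 of 45 of A and 9 of 48 of B. These counts move with depth. In the 140 and 61 cells found after thinning to 4346 UMIs, the first set had a UMI in 43.6% and 6.56% and the second in 16.4% and 29.5%, and neither in 43.6% and 67.2%. Flt3 alone then stood at 2.86% and 11.5%. Mpo, the myeloperoxidase gene of granulocyte and monocyte progenitors, was present in 84.6% and 71.0% of the cells, and in 70.0% and 67.2% after thinning.

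**Figure D3:**
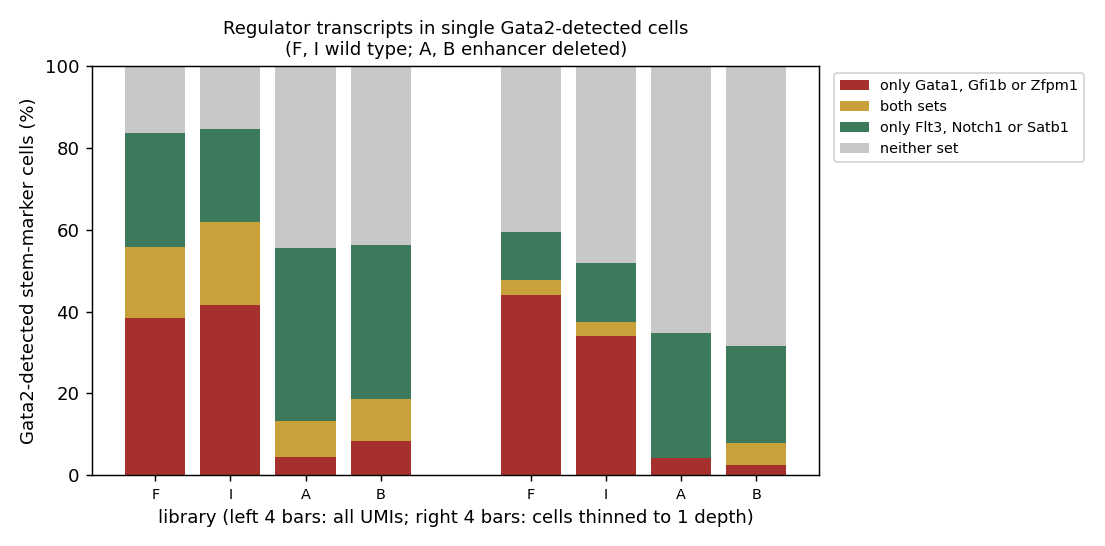
Percent of Gata2-detected stem-marker cells in each library with a UMI of only the set Gata1, Gfi1b or Zfpm1, of both sets, of only the set Flt3, Notch1 or Satb1, or of neither; left bars use all UMIs and right bars cells thinned to 4346 UMIs. The first set covers 58 of 104 and 52 of 84 cells in F and I against 6 of 45 and 9 of 48 in A and B.

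The effect of the enhancer deletion within Gata2-detected stem-marker cells was the next comparison, which asks what the cells that still had Gata2 transcript looked like without the enhancer. Among the genes that passed, Gata1, Apoe, Gfi1b, Plek and Hdc were lower in the enhancer-deleted cells, and Socs2, Cd24a, Ifitm1, Ifitm3 and Hbb-bt were higher. In edgeR's quasi-likelihood test over 4 libraries, 21 of 3472 genes (0.605%) had an adjusted p under 0.05. Of these 13 (0.374%) were lower and 8 (0.23%) higher in the enhancer-deleted cells. Libraries of the 2 genotypes did not overlap for 45.7% of all genes tested, so separation alone is common with 2 libraries against 2. DESeq2's Wald test called 6, among them Gata1, Apoe, Socs2, Cd24a and Ifitm3. The count was 34 without library I, 193 without A and 73 without B, and 5 among cells with at least 2 Gata2 UMIs, of which the enhancer-deleted libraries had 4 and 2. The enhancer-deleted cells were fewer and shallower, and a Gata2-positive wild-type cell and a Gata2-positive enhancer-deleted cell need not be the same kind of cell. Fewer cells of 1 kind and less transcript per cell cannot be told apart in such sums.

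Gata1 was not detected in the enhancer-deleted cells: 55 and 31 UMIs were counted in F and I and 0 in A and B. Set against a floor of 3 UMIs over both enhancer-deleted libraries, it was at least 8.81-fold lower (edgeR adjusted p = 0.0144). Over all cells of the libraries Gata1 was at 13.8, 10.8, 0.772 and 0.602 CPM. Gfi1b, at 51.4, 41.7, 8.32 and 13.7 CPM, had a log2 difference of -2.11 ± 0.43 (edgeR adjusted p = 0.0379). Its UMIs came from 36 and 26 cells in F and I and from 3 and 5 cells in A and B. Zfpm1 had a like difference, -1.89 ± 0.42, at an adjusted p of 0.0547, and so did not pass. Of the 14 partner and regulator genes tested, Gfi1b alone passed, and their median log2 difference was 0.00.

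Among the rule genes, which were not tested, Hoxa7 was at 77.6, 91.1, 155 and 132 CPM and Mycn at 81.0, 68.1, 77.7 and 79.6 CPM.

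Of 11 erythroid genes tested, 4 were lower (Gata1, Apoe, Car2 and Mt1) and 1 higher (Hbb-bt), with a median of -0.84. Apoe fell from 887 and 517 CPM to 94.3 and 49.4 CPM, a log2 difference of -3.34 ± 0.29 (edgeR adjusted p = 1.94e-05). The groups were far apart, and the difference passed under all 14 alternatives. An Apoe UMI was present in 81 of 104, 70 of 84, 16 of 45 and 9 of 48 cells. In F a single cell held 88 of the 1052 Apoe UMIs. Without the cells that had a Gata1 UMI the log2 difference was -2.74. Car2, carbonic anhydrase of erythroid and other progenitors, was at 166, 205, 108 and 107 CPM (-0.84 ± 0.17, edgeR adjusted p = 0.043), and Mt1, a metallothionein gene, at 126, 106, 55.5 and 54.9 CPM (-1.12 ± 0.21). Hbb-bt rose from 175 and 203 CPM to 607 and 302 CPM (1.22 ± 0.23, edgeR adjusted p = 0.0233). Over all cells it stood the other way, at 626, 950, 209 and 190 CPM. In A, 26 of 45 cells had an Hbb-bt UMI and the highest single cell had 36 UMIs.

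Hdc, which codes for the histamine-forming enzyme of mast cells and basophils, was at 20.2, 23.0, 0 and 0 CPM. It came from 18 of 104 and 14 of 84 wild-type cells and from none of the 93 enhancer-deleted ones, and was at least 5.22-fold lower (edgeR adjusted p = 0.0181). Its partner marker Cpa3 was limited by the rule itself. Sapcd1, a gene of little known function, was at 14.3, 14.47, 0 and 0 CPM (at least 3.48-fold lower, edgeR adjusted p = 0.0465), and passed under 2 of 7 alternatives. All 6 megakaryocyte genes tested had a negative difference, as did 1818 of all 3472 genes tested. Of the 6, 1 passed, Plek, the platelet kinase substrate pleckstrin, at 54.8, 42.6, 11.1 and 8.23 CPM (-2.37 ± 0.44, edgeR adjusted p = 0.0229). Pf4, platelet factor 4, was at 114, 14.47, 8.32 and 2.74 CPM and did not pass (edgeR adjusted p = 0.207). In F its 135 UMIs came from 12 cells, 38 of them from 1 cell.

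Further genes that were lower included Rgs10, a regulator of G-protein signalling, at 64.1, 50.2, 13.9 and 11.0 CPM (-2.24 ± 0.40). Itga4, the alpha-4 integrin that progenitors use to bind stroma, was at 123, 138, 58.2 and 63.1 CPM (-1.15 ± 0.19). The kinase gene Taok3 was at 123, 124, 52.7 and 65.9 CPM (-1.11 ± 0.19). S100a8, a calprotectin subunit of neutrophils, was at 61.6, 40.9, 8.32 and 2.74 CPM (-3.23 ± 0.56, edgeR adjusted p = 0.0144). Over all cells of the libraries S100a8 was at 2697, 1733, 236 and 112 CPM, and within the Gata2-detected cells no cell had more than 4 of its UMIs. The summed neutrophil list was at 1592 to 2154 CPM in these cells against 6160 to 19332 CPM over all cells. What free RNA contributed to S100a8 was not tested.

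Socs2, a feedback inhibitor of cytokine receptor signalling through JAK and STAT proteins, rose most. It was at 9.28 (F), 7.66 (I), 99.8 (A) and 118 (B) CPM, 12.2-fold higher in the enhancer-deleted cells. The log2 difference was 3.61 ± 0.31 (edgeR adjusted p = 1.94e-05), and it passed under all 13 alternatives in which it was tested. A Socs2 UMI was present in 18 of 188 wild-type cells (9.57%) and 45 of 93 enhancer-deleted cells (48.4%), and in 3.57% and 31.1% after thinning. Of the 6 cytokine receptor and signalling brake genes, Socs2 alone passed. Of 7 genes tested from the interferon response list 2 were higher: Ifitm1 at 406, 206, 1037 and 810 CPM (1.54 ± 0.23) and Ifitm3 at 282, 249, 635 and 552 CPM (1.11 ± 0.14). Both code for membrane proteins that block virus entry and are expressed in stem and progenitor cells. Cd24a, a surface glycoprotein gene that changes along many blood lineages, was at 135, 110, 255 and 324 CPM (1.19 ± 0.16, edgeR adjusted p = 0.00164). Gm26917 (0.85), Clpp (0.79), a mitochondrial protease subunit, and Psma7 (0.49), a proteasome subunit, completed the 8 rises.

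Lymphoid, monocyte and cell-cycle genes gave no call by edgeR. Of 10 lymphoid genes 7 had a positive difference with a median of 0.22 and 4 had an unadjusted p under 0.05, and Flt3 was at 22.8, 23.0, 27.7 and 24.7 CPM (0.15 ± 0.37). Of 21 S-phase genes 2, and of 21 G2 and M-phase genes 2, had an unadjusted p under 0.05. Among all 3472 genes tested, 1654 had a positive difference and 491 an unadjusted edgeR p under 0.05. With simulated 2-fold changes in sums of these sizes the test recovered 57% of changed genes, so many true changes of that size would be missed. Of markers of other cells, the 1 measured liver macrophage gene ran from 0 to 11.1 CPM, the eosinophil genes from 0 to 2.53 CPM, and no stromal gene was in the panel. The 3 measured endothelial genes summed to 332, 276, 413 and 456 CPM, nearly all of it Egfl7, which stem cells also express. Of the other 2, Lyve1 had a UMI in 1 cell of F (21 UMIs) and 1 of A (3 UMIs), and Stab2 in 1 cell each of F, I and A (8, 1 and 5 UMIs). Dlk1, the 1 measured hepatoblast gene, ran from 57.6 to 112 CPM in these cells and from 62.4 to 97.7 CPM in the Gata2-undetected ones.

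**Figure D4:**
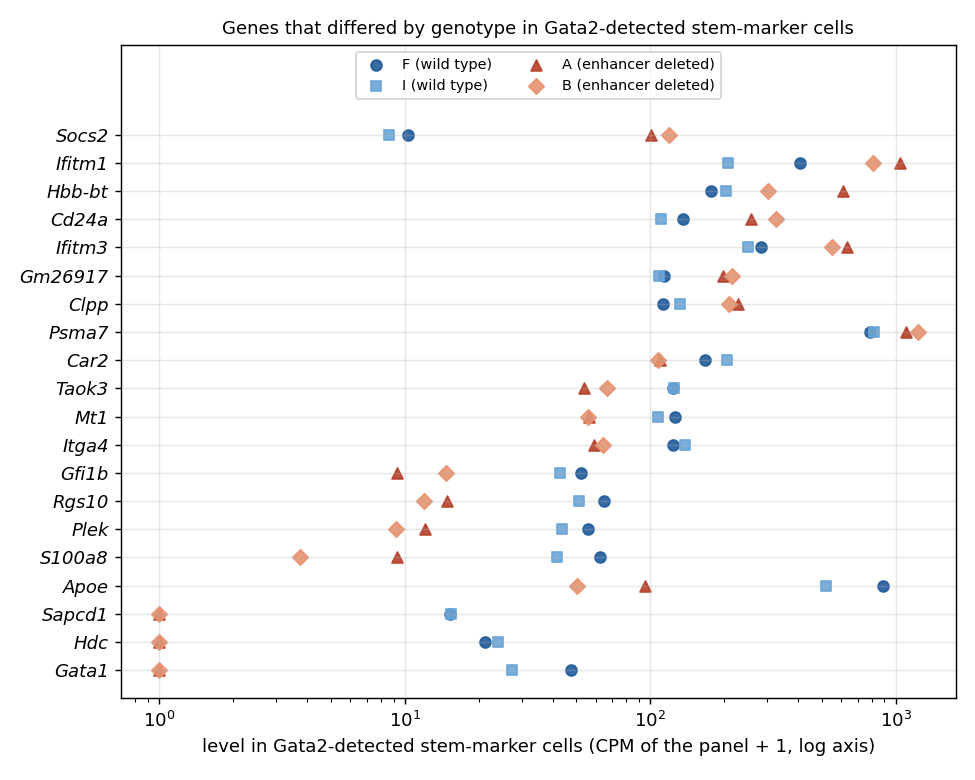
Level in Gata2-detected stem-marker cells of the genes named here that passed the genotype test (y axis), as CPM of the panel plus 1 on a log axis (x axis); each symbol is 1 library. Gata1, Hdc and Sapcd1 have no UMI in either enhancer-deleted library, and Socs2 stands at 99.8 and 118 CPM in A and B against 9.28 and 7.66 CPM in F and I.

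The same genotype comparison was made in Gata2-undetected stem-marker cells. Such a cell may still have held Gata2 transcript, since 60.7% (I) to 95.8% (B) of the Gata2-detected cells of a library had exactly 1 UMI. A difference that passed here did not need a Gata2 UMI, while one that did not pass is not shown to need it. Of 3540 genes, 8 passed (0.226%), 4 lower (0.113%) and 4 higher (0.113%), and libraries did not overlap for 42.3%. DESeq2 called 14. The count was 195 without library A and 56 without B. Socs2 was at 7.51, 5.53, 75.0 and 73.6 CPM there (log2 difference 3.45 ± 0.20, edgeR adjusted p = 0.000297), and Apoe at 230, 148, 60.5 and 46.8 CPM (-1.88 ± 0.22, edgeR adjusted p = 0.0154). Hbb-bt and Gm26917 were higher and passed as well. Mzb1, Il12a and Pf4 were lower and Serpina3g higher. Gata1, at 6.76, 5.92, 1.52 and 0.577 CPM, had a log2 difference of -2.68 ± 0.50 and did not pass.

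Whether the genotype effect differed by Gata2 detection was tested as an interaction within the libraries. Of 3554 genes, 33 passed in edgeR (0.929%), 16 (0.45%) with a more positive and 17 (0.478%) with a more negative genotype effect in Gata2-detected cells. The difference did not overlap between genotypes for 40.6% of genes. DESeq2 called 2, Apoe and Ifitm1. The count was 16, 12, 12 and 13 without F, I, A and B, 9 with comparison cells of matching depth and 8 without cells that had a Gata1 UMI. In this edgeR fit the library block takes up the spread between libraries. The spread that remained beyond counting error, that of the detected against undetected difference, had a coefficient of variation of 0.0140. The genotype test in Gata2-detected cells, which has no block, had 0.0838.

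Apoe was called by both edgeR and DESeq2. Its fall with the deletion was deeper in Gata2-detected cells by -1.48 ± 0.21 on the log2 scale (edgeR adjusted p = 1.73e-08), and it passed under 14 of 15 alternatives. Ifitm1 rose more in Gata2-detected cells, by 0.72 ± 0.09 (edgeR adjusted p = 3.18e-10), from levels of 533, 323, 869 and 692 CPM in undetected cells. After thinning its difference was -0.18. Cd27, a receptor of early progenitors, was at 98.7, 109, 125 and 156 CPM in detected and 156, 154, 124 and 120 CPM in undetected cells. In the wild type it was lower with Gata2, and in the enhancer-deleted libraries it was not lower in A and higher in B (0.78 ± 0.20, edgeR adjusted p = 0.0123). Lsp1, a lymphoid signalling protein gene, was lower with Gata2 in 4 of 4 libraries, but less so in A and B (0.85 ± 0.20). Tsc22d1 was at 70.8, 55.3, 103 and 121 CPM against 119, 148, 101 and 99.6 CPM (1.23 ± 0.23), lower with Gata2 in the wild type and not in A or B. Egfl7, a secreted factor of endothelium and stem cells, was at 308, 275, 391 and 456 CPM against 447, 439, 416 and 408 CPM (0.64 ± 0.12).

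In the other direction, Vamp5 and Hmgb3 were raised with Gata2 mainly in the wild type: Vamp5 was at 450, 400, 275 and 332 CPM against 196, 210, 217 and 236 CPM (-0.65 ± 0.13). Hmgb3, a chromatin protein of progenitors, was at 476, 361, 311 and 272 CPM against 263, 249, 276 and 261 CPM (-0.60 ± 0.13). Gfi1b (-1.57 ± 0.60, edgeR adjusted p = 0.253) and Zfpm1 (-1.64 ± 0.58, 0.202) had large estimates that did not pass, so a difference between genotypes in their tie to Gata2 was not shown at this depth. For Gata1 and Hdc, with 0 UMIs in the enhancer-deleted Gata2-detected cells, no fold was fitted that could be read. Socs2 had an interaction of 0.17 ± 0.46 (edgeR adjusted p = 0.938), and its sign changed between alternatives.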

How the data were processed

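Per the submitters' processing notes, Cell Ranger 2.0.2, Seurat 2.3.4 and the genome build mm10 were used; how genes and cells were filtered is not given in the sources used here. The deposited table holds raw UMI counts (whole numbers) of 3624 genes in 9960 cells, 4980 per genotype, with separate lists of gene names and of library and genotype per cell. The library letters match no sample title, so the genotype came from the deposited grouping. The labels name 2 embryos per genotype but not whether they were sorted or prepared apart. The p-values of the genotype tests thus measure the spread between these libraries. Those of the detection and interaction tests measure counting error together with how far the difference between detected and undetected cells varied from library to library. That further variation was small, with a coefficient of variation of 0.0309 (detection) and 0.0140 (interaction).

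UMIs were summed per library over Gata2-detected and Gata2-undetected stem-marker cells. Sums were tested with edgeR 4.0.16 (TMM, filterByExpr, glmQLFit, glmQLFTest, two-sided, Benjamini-Hochberg over all genes tested, threshold 0.05) in R 4.3.3, and with DESeq2 1.42.0 as an alternative. Cells were thinned without replacement to 4346 UMIs, the 10th percentile. Intervals are exact (Clopper-Pearson, 95%). No removal of doublets is stated; leaving out the deepest 5% of cells per library was an alternative. The script was tested on simulated data.

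The rule, the cells and the gene lists were chosen with earlier results of these data known, so list counts and medians are descriptions. Named genes were the 10 largest rises and falls among passing genes of at least 20 CPM that separated the libraries, up to 3 genes of each list with the smallest p, and fixed genes of interest. A few more, named to complete counts, were chosen after their values were seen. Some results are not reported here.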

Additional observations from a re-analysis of the deposited data

Results flagged for a closer look

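The effect of the enhancer deletion differed between Gata2-detected and Gata2-undetected stem-marker cells for 33 genes by the interaction test (edgeR, adjusted p under 0.05). Listed here are 20 of them, the largest in each direction among those of at least 20 CPM with the 2 genotypes not overlapping. The list was limited to a fixed number per direction, so 20 is not a count of all such genes. The genotypes did not overlap for 40.6% of all 3554 genes tested. Values are the log2 genotype effect in Gata2-detected cells minus that in Gata2-undetected cells. It was positive for Tsc22d1 (1.23), Lsp1 (0.85), Cd27 (0.78), Tspan13 (0.74), Ifitm1 (0.72), Cd24a (0.66), Egfl7 (0.64), Ifitm3 (0.54), Coro1a (0.42) and Ptprcap (0.34). It was negative for Lmo4 (-1.72), Minpp1 (-1.60), Apoe (-1.48), Mt1 (-1.15), Taok3 (-1.07), Ier3ip1 (-0.78), Abcf1 (-0.67), Vamp5 (-0.65), Hmgb3 (-0.60) and Hdgf (-0.56). DESeq2 called only Apoe and Ifitm1 among all genes tested. Depth moved with these results, since the Gata2-detected cells had medians of 10947 and 13178 UMIs in the wild type and 8376 and 7442.5 in the enhancer-deleted libraries, and its part in them was not tested beyond thinning and matching.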

How the results depend on the processing

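Counts of genes past the threshold are given for the genotype test in Gata2-detected cells (21), the detection test (126), the interaction (33) and the genotype test in Gata2-undetected cells (8). Leaving out 1 library gave 27 to 193, 26 to 202, 12 to 16 and 10 to 195. The DESeq2 Wald test gave 6, 17, 2 and 14, and thinned cells 38, 67, 19 and 41. With library totals in place of TMM the genotype tests gave 54 and 77. At least 2 Gata2 UMIs gave 5 (genotype) and 9 (interaction), and at least 3 stem-marker UMIs per 10000 gave 60 (detection), 1 (interaction) and 71 (undetected). Without the deepest cells the genotype test gave 50. A term for Xist gave 84 and 15. Comparison cells of matching depth gave 67 and 9, and those with a Flt3 UMI 251 (detection). With no replicate block the detection test gave 8. Chosen after seeing the data, leaving out cells with a Gata1 UMI gave 74, 8 and 15 for the last 3 tests, and detection gave 329 in wild-type and 9 in enhancer-deleted libraries alone. The mean share of all cells, 3.88% and 1.88%, became 2.90% and 1.46% after thinning, 1.44% and 0.126% with 2 Gata2 UMIs, and 2.21% and 1.33% at the higher stem-marker limit. Signs reversed for Gm26917 (-0.26, genotype, 2 Gata2 UMIs), Flt3 (-0.16, genotype, without Gata1 cells; -0.33, interaction, Flt3 comparison), Tspan13 (-0.21) and Socs2 (-0.26) in the interaction with 2 Gata2 UMIs, Ifitm1 (-0.18) and Ier3ip1 (0.057) in the interaction after thinning, and Socs2 (-0.38 at matching depth, -0.28 with the Flt3 comparison). The causes were not tested. No paired analysis was possible because the genotypes share no replicate number in the columns, so that block was not run, nor was the limit of 2 Gata2 UMIs for undetected cells. The 93 enhancer-deleted cells limit all but large differences.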
